A study of Sus scrofa with 6 samples.

Results

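Cyclins, cyclin-dependent kinases (CDKs) and DNA replication genes were examined in porcine granulosa cells (GCs) that overexpressed retinol binding protein 4 (*RBP4*). The members were chosen by name. A gene was a member when its symbol began with CDK or CDC and a digit, with CDKN, with E2F, with a cyclin A, B, D, E or H symbol, or with the MCM, ORC, RFC, GINS, POLA, POLD, POLE, PRIM or RRM stem, or when it was *PCNA*, *RB1*, *TOP2A* or *MKI67*. Of the 17950 genes in the deposited table, 10757 had a symbol and 99 of these were members. Of the members, 98 were named by a table of Ensembl gene names and 1, *CDK5R2*, only by the tables of the study. The D-type cyclins, *CDK2*, *CDK6*, *CCNA2*, *CCNH*, *PCNA*, *MKI67*, *MCM6*, *MCM7* and *RRM2* were not found by name and were not analysed here. The same holds for *CDKN1B*, *CDKN1C*, *CDKN2B*, *E2F2*, *E2F3*, *CDC25C*, *POLE*, *GINS1*, *GINS2* and *GINS4*. Any ranking within a family therefore covers only the genes found.

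The GCs were primary cells aspirated from ovarian follicles of prepubertal Landrace gilts and left to attach for 24 h. They were then infected for 72 h with lentivirus made from pLVX-IRES-ZsGreen with the porcine *RBP4* cDNA (pLVX-*RBP4* group) or from the same vector without it (CTRL group), so both groups carried the vector and its green fluorescent reporter. RNA was sequenced from 3 libraries per group, described as biological triplicates, and the deposited table holds 1 value per gene and group, in FPKM (fragments per kilobase of transcript, relative to all mapped fragments). The spread between the 3 libraries of a group is not known from these values, so no test between the groups was made, and no error can be given. The FPKM values are the authors' own, for a whole group, and the differences, medians, rescaled values and ratios were computed from them. The table itself gives no depth, and the quality statistics of the study list more mapped reads for each pLVX-*RBP4* library than for any CTRL library. Whether depth had a part in the differences was not tested. *RBP4* itself (ENSSSCG00000010479) had 1.105 FPKM in CTRL cells and 92.3 FPKM in pLVX-*RBP4* cells, as the labels say.

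Cells divide by passing through a phase of growth (G1), the copying of DNA (S), a second gap (G2) and mitosis (M). D- and E-type cyclins with their CDKs inactivate the retinoblastoma protein, which releases E2F factors to switch on the genes of DNA synthesis. The origin recognition complex (ORC), with CDC6, then loads the MCM helicase on DNA, CDC45 and GINS activate it, and primase, the replicative polymerases, the sliding clamp and its loader copy the strands. Cyclin B with CDK1 drives entry into mitosis. Granulosa cells multiply while follicles grow, and leave the cycle when they turn into luteal cells after ovulation.

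Differences between the groups were computed as pLVX-*RBP4* minus CTRL on the log2(FPKM + 1) scale, which understates the difference of weakly expressed genes. A mean over both groups of 1 FPKM or more was reached by 87 of the 99 members and by 12382 of all genes. Of the 87 members, 58 (66.7%) were higher in pLVX-*RBP4* cells, against 50.2% of all genes, and 29 (33.3%) were lower, against 49.8%. The median difference of the 87 members was 0.088, and that of all genes was 0.0014. The differences were small. At least 1.2-fold higher values were found for 10 members (11.5%), close to the 11.0% of all genes, and at least 1.2-fold lower values for 3 members (3.45%), against 8.63% of all genes. With a pseudocount of 0.1 in place of 1, 14 members (16.1%) were at least 1.2-fold higher, against 13.4% of all genes. Whether the members differ from all genes was not tested. In bulk RNA, more cells in a phase of the cycle and more RNA per cell cannot be told apart.

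The direction of small differences depends on how the 2 columns are scaled. When both groups were rescaled to a common sum, 69 of the 87 members were higher and 18 lower, where 64.9% of all genes were higher. When the sum was taken without the gene with the highest value, the median of all genes moved to -0.10, with 30.1% of all genes higher. There 43 members were higher and 44 lower, and the members' median was -0.015. This 1 gene had a mean of 337956 FPKM, in columns that summed to 1.13e+06 and 1.07e+06 FPKM. The factor on the pLVX-*RBP4* values was 1.057 with it and 0.921 without it, so the 2 sum rescalings differ through this gene alone. Across the deposited values and 4 rescalings, the members' median stood 0.085 to 0.089 above the median of all genes under the same scaling. Of the 87 members, 56 to 58 lay above it. Rescaling 1 column shifts all genes by nearly the same amount, so these results were almost fixed in advance and add no support. The distance was smaller with a limit of 5 FPKM on the mean, where the median of the remaining 65 members was 0.046, or 0.037 above that of all genes, with 40 members higher and 25 lower. The cell cycle and replication members among them had a median of 0.12.

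The name stems take in genes with unlike tasks. By role, 61 members belong to the cell cycle or to DNA replication, and 38 do other work, such as transcription CDKs, CDK-binding proteins and the partners of the GTPase CDC42. Of the 53 cell cycle and replication members with a mean of 1 FPKM or more, 43 (81.1%) were higher in pLVX-*RBP4* cells and 10 lower, with a median difference of 0.12. After rescaling to a common sum without the highest gene, 32 were higher, with a median of 0.020. Of the 34 members with other roles, 15 were higher and 19 lower, with a median of -0.018, which turned to 0.060 after rescaling to a common sum and to 0.0043 after scaling to a common median. Whether the 2 sets differ was not tested. The roles were assigned with earlier results of these data known. This split, and the counts given for its 2 sets here and below, are therefore a description and no independent support. Relative to the median of all genes, the cell cycle and replication members stood 0.12 higher under each scaling, and those with other roles between 0.013 and 0.026 lower. These distances are nearly fixed by the way a column is rescaled, so their stability is no support.

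**Figure D1:**
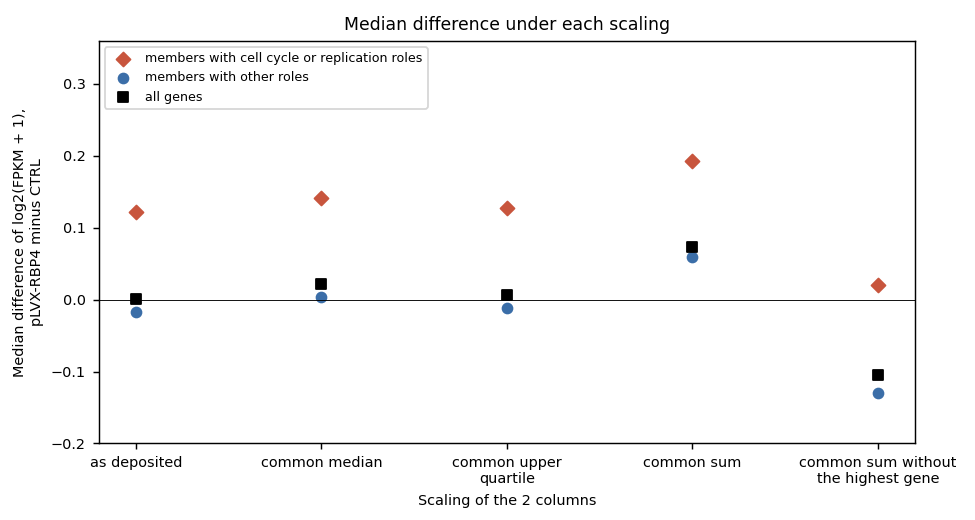
Median difference between the groups (vertical axis, log2(FPKM + 1), pLVX-RBP4 minus CTRL) for the 53 cell cycle and replication members, the 34 members with other roles and all 12382 genes, as deposited and under 4 scalings of the columns (horizontal axis). Each scaling multiplies 1 column by a constant, so the 3 medians move together by construction. The distance of 0.12 between the first set and all genes is therefore nearly fixed and is no support. The median of the first set ranges from 0.020 to 0.19.

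Of the 53 cell cycle and replication members, 9 (17.0%, against 11.0% of all genes) were at least 1.2-fold higher, namely *CDK1*, *CCNB1*, *CDKN2D*, *CDKN2C*, *ORC5*, *ORC3*, *POLE2*, *PRIM1* and *RFC3*, and 1 (1.89%, against 8.63% of all genes) was at least 1.2-fold lower, *CDKN2A*. At 1.1-fold, 25 of the 53 (47.2%) were higher and 2 (3.77%) lower, where 25.0% and 22.6% of all genes were. At 1.5-fold, 2 of the 87 members, *POLE2* and *PRIM1*, were higher and 1, *CDKN2A*, lower, beside 1.49% and 1.28% of all genes. Of these 3, *POLE2* and *CDKN2A* had a value under 1 FPKM in 1 group. All these folds are on the FPKM + 1 scale, on which *CDK1*, with a plain FPKM ratio of 1.504, stayed under 1.5-fold. A difference within 0.25 of 0 was found for 42 of the 53 (79.2%) and for 78.3% of all genes.

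**Figure D2:**
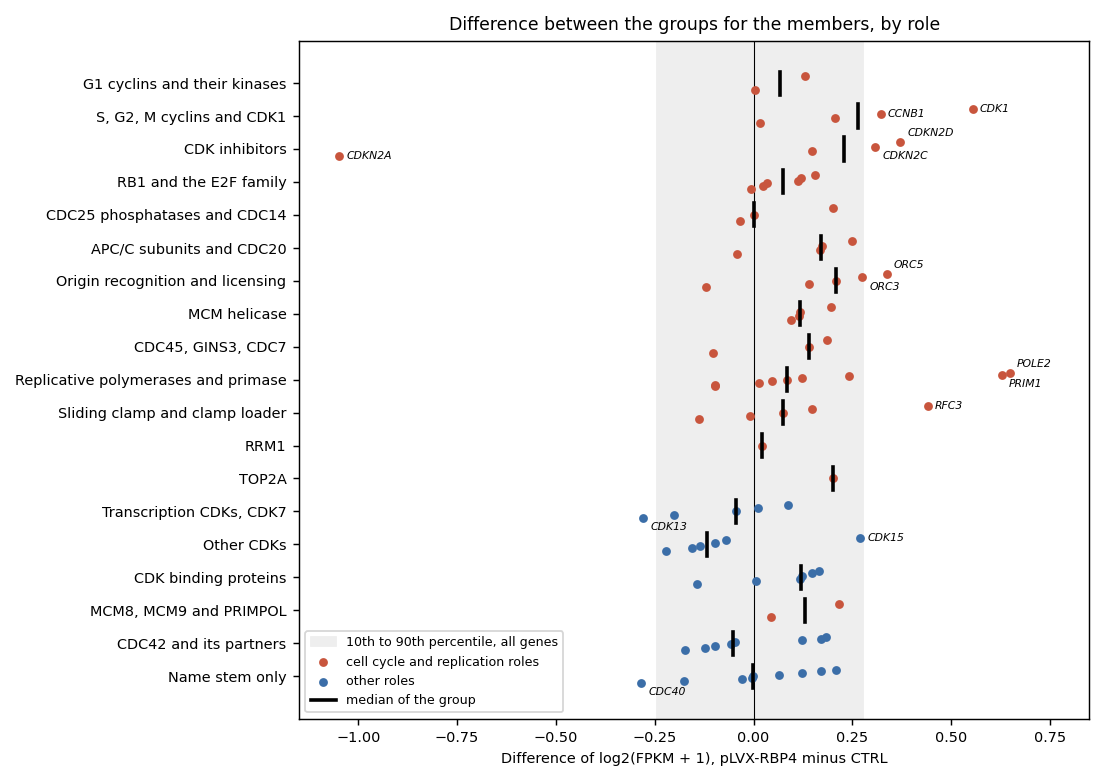
Difference between the groups (horizontal axis, log2(FPKM + 1), pLVX-RBP4 minus CTRL, as deposited) for the 87 members with a mean of 1 FPKM or more, grouped by role on the vertical axis. Each point is a gene, the black bar is the median of its group, the grey band runs from the 10th to the 90th percentile of all genes (-0.24 to 0.28), and the genes named are those at least 1.2-fold apart. Most points of the cell cycle and replication groups lie right of 0 within the band. Of the 6 other CDKs, 5 lie left of 0 (4 after rescaling to a common sum), where 49.8% of all genes do as deposited.

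Mitotic cyclins and their kinase had the highest group median. All 4 genes of this group with a mean of 1 FPKM or more were higher as deposited, and the median was 0.26. After rescaling to a common sum without the highest gene 3 were higher, as *CCNB3* turned to -0.076. The shares of all genes that were higher were 50.2% and 30.1%. *CDK1*, the kinase that drives entry into mitosis, had 13.3 FPKM in CTRL cells and 19.9 FPKM in pLVX-*RBP4* cells, a ratio of 1.504 and a log2 difference of 0.55. Its difference ranged from 0.44 to 0.63 over the scalings, and 1.30% of the genes with a mean of 5 to 20 FPKM were higher by at least as much. *CCNB1*, the main mitotic cyclin, had 16.0 and 20.3 FPKM (0.32), and *CCNB2*, which also binds CDK1, had 5.73 and 6.76 FPKM (0.21). The *CDK1* to *CCNB1* level ratio per length was 0.828 in CTRL cells and 0.984 in pLVX-*RBP4* cells. *CCNB3*, a B-type cyclin known from germ cells, had 3.52 and 3.57 FPKM, and *CCNA1*, a germ cell cyclin, stayed near the lower end of the values with 0.101 and 0.121 FPKM. *CDK1*, *CCNB1* and *CCNB2* were thus higher under each of the 4 rescalings, and *CCNB3* was not. The rescalings are too small to turn the differences of the first 3, so their kept sign is no support.

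At the G1 to S border the differences were smaller. *CDK4*, the partner of the D-type cyclins, had 11.6 FPKM in CTRL cells and 12.8 FPKM in pLVX-*RBP4* cells, a log2 difference of 0.13. *CCNE1*, which activates CDK2, had 6.13 and 6.14 FPKM, and its difference changed sign with the scaling, from -0.099 to 0.072. Its relative *CCNE2* was weakly expressed, at 0.398 and 0.635 FPKM.

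The inhibitors of CDKs that were found by name went both ways. *CDKN2D*, an inhibitor of the CDK4 type of kinase, was the most abundant of those found. It had 18.1 FPKM in CTRL cells and 23.7 FPKM in pLVX-*RBP4* cells (0.37). Its relative *CDKN2C* had 1.73 and 2.39 FPKM (0.31). *CDKN2A*, the locus of another inhibitor of that family and of the p53 activator ARF, was the member with the lowest difference. It had 2.13 FPKM in CTRL cells and 0.514 FPKM in pLVX-*RBP4* cells, a ratio of 0.241 and a log2 difference of -1.05. *CDKN3*, a phosphatase that acts on CDKs and is itself high in dividing cells, had 7.96 and 8.92 FPKM (0.15). *CDKN1A*, a target of p53, was listed at 0 in both groups, and such a 0 may be a failed estimate. So 2 inhibitors of the CDK4 type of kinase stood on the higher side and 1 on the lower side. Each difference kept its sign under the 4 rescalings, which are too small to turn differences of this size, so this is no support.

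Values of *RB1* and the E2F genes lay close together in the 2 groups. *RB1*, the brake on E2F, had 8.90 and 8.86 FPKM, and its difference ranged from -0.11 to 0.066 over the scalings. *E2F4*, a repressor type and the most abundant of the E2F genes found, had 13.0 FPKM in CTRL cells and 14.6 FPKM in pLVX-*RBP4* cells (0.16). *E2F6*, a repressor that does not bind the retinoblastoma protein, had 11.4 and 11.6 FPKM, and *E2F5* had 5.64 and 5.80 FPKM. The activator *E2F1* was at 3.85 and 4.25 FPKM (0.11). The atypical repressors were weak, *E2F8* with 1.06 and 1.24 FPKM and *E2F7* with 0.783 and 0.916 FPKM. In this group 5 of 6 genes were higher as deposited, 6 after rescaling to a common sum and 3 without the highest gene. The shares of all genes were 50.2%, 64.9% and 30.1%.

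**Figure D3:**
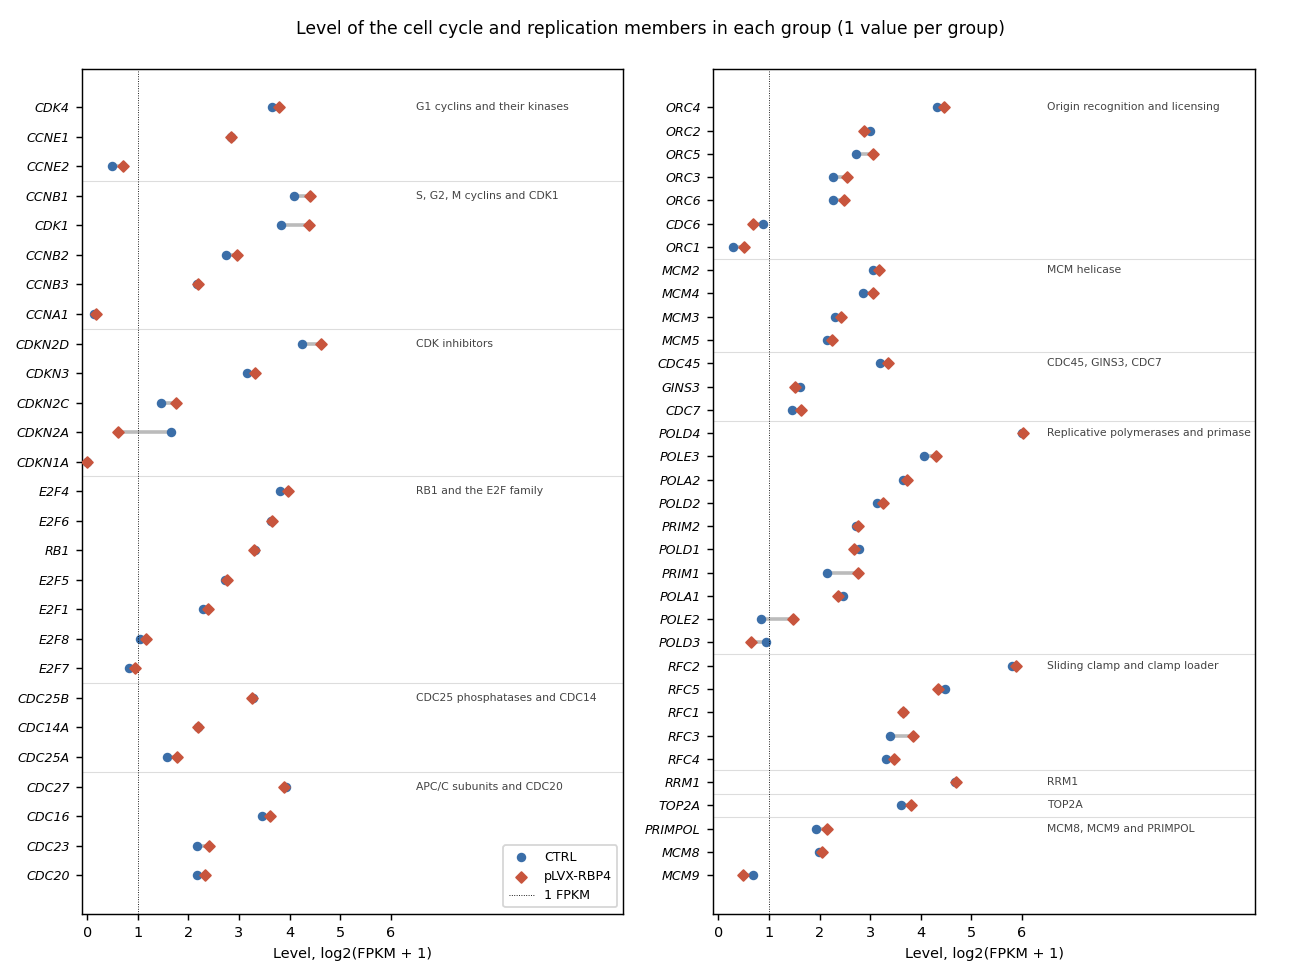
Level of the 61 cell cycle and replication members in CTRL cells (circles) and the pLVX-RBP4 group (diamonds), with 1 value per group, on the log2(FPKM + 1) scale (horizontal axis), by role; the dotted line marks 1 FPKM. Both values of a gene lie close together compared with the range between genes, and the widest gaps belong to *CDKN2A*, *POLE2*, *PRIM1* and *CDK1*.

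Among the CDC25 phosphatases, which remove the inhibiting phosphate from CDKs, *CDC25A* had 1.99 FPKM in CTRL cells and 2.43 FPKM in pLVX-*RBP4* cells (0.20), while *CDC25B* had 8.74 and 8.52 FPKM (-0.034). *CDC14A*, a phosphatase that reverses CDK phosphorylation, had 3.55 and 3.55 FPKM. The anaphase promoting complex ends mitosis by marking cyclin B for breakdown. Of its subunits, *CDC23* had 3.47 and 4.32 FPKM (0.25), *CDC16* had 9.92 and 11.3 FPKM (0.17) and *CDC27* had 14.3 and 13.9 FPKM (-0.041). Its activator *CDC20* had 3.47 and 4.03 FPKM (0.17). The phosphatase group had 2 of 3 genes higher as deposited, 3 after rescaling to a common sum and 1 without the highest gene. In the anaphase promoting complex group the counts were 3 of 4, 4 and 3. Among all genes the shares were 50.2%, 64.9% and 30.1%.

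The replication machinery, from origin binding to nucleotide supply, held 30 members, of which 27 had a mean of 1 FPKM or more. Of these, 21 were higher in pLVX-*RBP4* cells as deposited, 22 after rescaling to a common sum and 16 after rescaling without the highest gene. Among all genes 50.2%, 64.9% and 30.1% were higher. Relative to the median of all genes, 21 were above it under each of these 3 settings, a count that such rescalings can hardly change. The median difference was 0.12, 5 of the 27 were at least 1.2-fold higher, where 11.0% of all genes were, and 0 at least 1.2-fold lower, where 8.63% of all genes were. Summed over the 30 members, the level was 323 FPKM in CTRL cells and 346 FPKM in pLVX-*RBP4* cells, 6.89% more.

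Subunits of the ORC differed among themselves. *ORC5* had 5.57 FPKM in CTRL cells and 7.29 FPKM in pLVX-*RBP4* cells (0.34), *ORC3* had 3.83 and 4.84 FPKM (0.27), and *ORC6* had 3.81 and 4.56 FPKM (0.21). *ORC4* was the most abundant, with 18.9 FPKM in CTRL cells and 21.0 FPKM in pLVX-*RBP4* cells (0.14). *ORC2* had 7.03 and 6.39 FPKM (-0.12), on the other side of 0. The lowest values belonged to *ORC1*, the subunit whose level varies with the cycle, with 0.228 and 0.420 FPKM, and to *CDC6*, which brings in the MCM helicase, with 0.840 and 0.594 FPKM. The level of *ORC4* was 83.1 times that of *ORC1* per length in CTRL cells and 50.0 times in pLVX-*RBP4* cells.

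All 4 MCM subunits found by name were higher in pLVX-*RBP4* cells under the deposited values and all 4 rescalings. Of all genes, 50.2% were higher as deposited, and 30.1% to 64.9% over the rescalings. Rescaling moves all genes by nearly the same amount, so the kept direction adds little. *MCM2* had 7.31 FPKM in CTRL cells and 8.02 FPKM in pLVX-*RBP4* cells (0.12), *MCM4* had 6.21 and 7.27 FPKM (0.20), *MCM3* had 3.96 and 4.38 FPKM (0.12) and *MCM5* had 3.42 and 3.72 FPKM (0.095). These subunits belong to 1 ring, and their differences lay between 0.095 and 0.20, where 78.3% of all genes lay within 0.25 of 0. The smallest value over the scalings was 0.0013, for *MCM5*, and none of the 4 reached 1.2-fold as deposited. For the factors that activate the ring, *CDC45* had 8.21 and 9.15 FPKM (0.14), the kinase *CDC7* had 1.74 and 2.12 FPKM (0.19), and *GINS3* had 2.05 and 1.84 FPKM (-0.10).

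Polymerase and primase genes held the largest positive differences of the 87 members on this log2 scale. *POLE2*, the second subunit of the leading strand polymerase, had 0.780 FPKM in CTRL cells and 1.79 FPKM in pLVX-*RBP4* cells, a ratio of 2.30 and a log2 difference of 0.65. It passed the limit of 1 FPKM only through the pLVX-*RBP4* value, as *CDKN2A* did through the CTRL value. *PRIM1*, the catalytic subunit of primase, had 3.40 and 5.81 FPKM, a ratio of 1.71 and a log2 difference of 0.63. Of all genes with a mean of 1 to 5 FPKM, 1.97% were higher by at least as much as *PRIM1*.

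The partners of these 2 genes in the same complexes were less far apart on this scale. *PRIM2*, the other primase subunit, had 5.55 and 5.77 FPKM (0.046), *POLA1*, the catalytic subunit of the polymerase bound to primase, had 4.51 and 4.15 FPKM (-0.098), and *POLA2* had 11.5 and 12.3 FPKM (0.084). *POLE3*, a histone-fold subunit of the leading strand polymerase that chromatin remodelling complexes also use, had 15.8 and 18.8 FPKM (0.24). In the lagging strand polymerase, the catalytic *POLD1* had 5.84 and 5.40 FPKM (-0.097), *POLD2* had 7.75 and 8.52 FPKM (0.12), *POLD3* had 0.905 and 0.566 FPKM, and *POLD4*, the most abundant member of the machinery, had 63.0 and 63.6 FPKM (0.015). Of the 9 genes of this group with a mean of 1 FPKM or more, 7 were higher as deposited, with a median difference of 0.084. After rescaling to a common sum without the highest gene 4 were higher, with a median of -0.026. Among all genes 50.2% and 30.1% were higher.

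The clamp loader puts the sliding clamp on DNA. *RFC3* had 9.52 FPKM in CTRL cells and 13.3 FPKM in pLVX-*RBP4* cells (0.44), and 2.56% of the genes with a mean of 5 to 20 FPKM were higher by at least as much. *RFC4* had 8.98 and 10.1 FPKM (0.15), *RFC2* had 55.2 and 58.2 FPKM (0.076), *RFC1*, the large subunit, had 11.6 and 11.5 FPKM (-0.0088), and *RFC5* had 21.4 and 19.4 FPKM (-0.14). The 5 subunits were thus spread from -0.14 to 0.44. Of them 3 were higher as deposited, 4 after rescaling to a common sum and 2 after rescaling without the highest gene. The shares of all genes were 50.2%, 64.9% and 30.1%. *RRM1*, the large subunit of the reductase that makes deoxyribonucleotides, had 24.6 and 24.9 FPKM, and its difference ranged from -0.093 to 0.098 over the scalings. *TOP2A*, which untangles sister chromatids and marks cells in G2 and M, had 11.1 and 13.0 FPKM (0.20).

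**Figure D4:**
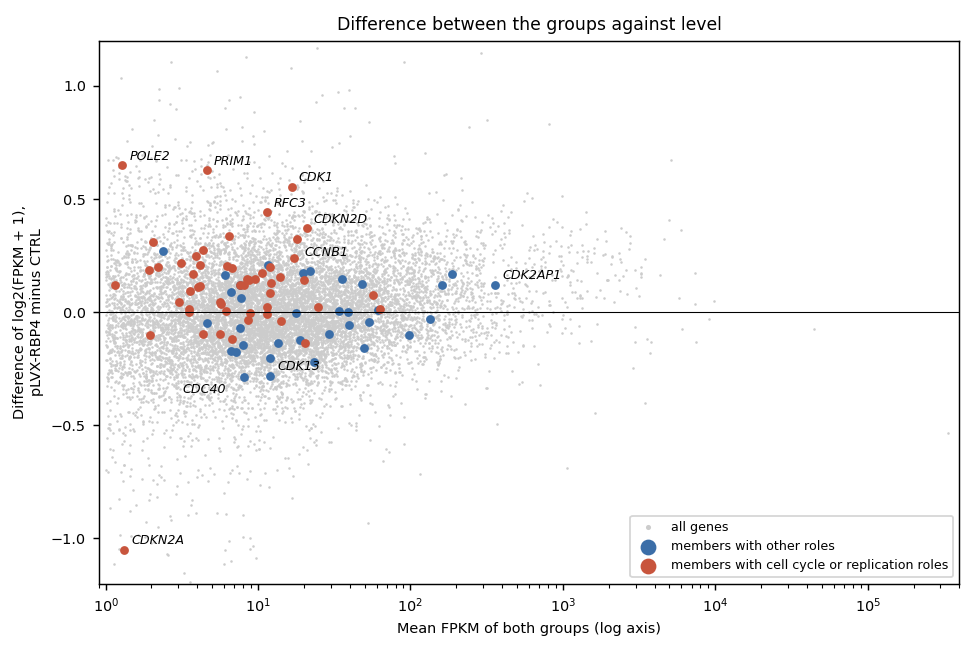
Difference between the groups (vertical axis, log2(FPKM + 1), pLVX-RBP4 minus CTRL, as deposited) against the mean FPKM of both groups (horizontal axis, log scale) for 12289 genes in grey, with the 87 members in colour; 93 genes beyond 1.2 on the vertical axis are not drawn. The cell cycle and replication members lie mostly at low to middle levels and above 0, and those with other roles on both sides of 0 up to *CDK2AP1*.

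CDKs outside the division cycle were mostly lower as deposited. Of the 6 CDKs that bind cyclins of other families or have no settled role in division, 5 were lower as deposited. The count was 5 under the rescaling without the highest gene and 4 after rescaling to a common sum. Among all genes 50.2% were higher as deposited, 30.1% without the highest gene and 64.9% after rescaling to a common sum. *CDK16*, the most abundant, had 102 FPKM in CTRL cells and 94.9 FPKM in pLVX-*RBP4* cells (-0.099), *CDK18* had 52.3 and 46.8 FPKM (-0.16), *CDK14* had 25.2 and 21.5 FPKM (-0.22) and *CDK17* had 14.1 and 12.8 FPKM (-0.14). *CDK15* went the other way, with 2.06 and 2.68 FPKM (0.27). Of the 5 kinases of the transcription machinery, 2 were higher as deposited, 3 after rescaling to a common sum and 0 after rescaling without the highest gene. *CDK13* and *CDK12*, which act with cyclin K on the elongating RNA polymerase, had 13.2 and 10.7 FPKM (-0.28), and 13.0 and 11.1 FPKM (-0.20). *CDK9*, the elongation kinase, had 61.0 and 61.5 FPKM, *CDK8* of the Mediator complex had 54.3 and 52.6 FPKM (-0.045), and *CDK7*, which also activates the cell cycle CDKs, had 6.40 and 6.87 FPKM (0.088).

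Most of the remaining members share a stem but not a task. *CDK2AP1*, a CDK2-binding protein and the most abundant member, had 343 FPKM in CTRL cells and 373 FPKM in pLVX-*RBP4* cells (0.12), and 5 of the 6 CDK-binding proteins with a mean of 1 FPKM or more were higher, or 4 after rescaling to a common sum without the highest gene. *CDC42*, a GTPase of the actin skeleton, had 176 and 198 FPKM (0.17), and its group of 8 genes split into 3 higher and 5 lower, or 5 higher after rescaling to a common sum. *CDC42EP4*, an effector of CDC42, had the largest positive difference there, with 20.5 and 23.4 FPKM (0.18), and *CDC42EP2* the largest negative one, with 7.13 and 6.21 FPKM (-0.17). Of 9 genes with unrelated roles, 4 were higher as deposited, 7 after rescaling to a common sum and 3 after rescaling without the highest gene. For these groups too, the shares of all genes under the 3 settings were 50.2%, 64.9% and 30.1%. *CDC40*, a splicing factor, had 9.01 and 7.22 FPKM (-0.28), and *CDC37*, a partner of the chaperone HSP90, had 136 and 133 FPKM (-0.030). *PRIMPOL*, which restarts stalled forks, had 2.81 and 3.43 FPKM (0.22), and *MCM8*, a helicase of recombination, had 2.99 and 3.11 FPKM (0.045). Unlike the others here, *PRIMPOL* and *MCM8* were counted among the cell cycle and replication members.

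Genes of the same pathway whose names do not match the stems were taken from lists. These lists were chosen with earlier results of these data known, so their counts describe the pathway and are no independent support. Of 34 further replication genes, 25 were found by symbol and 24 had a mean of 1 FPKM or more, of which 21 were higher, or 16 after rescaling to a common sum without the highest gene, with a median difference of 0.14. Of all genes, 50.2% were higher as deposited and 30.1% under that rescaling. *GMNN*, the inhibitor of relicensing, had 10.8 FPKM in CTRL cells and 14.6 FPKM in pLVX-*RBP4* cells (0.40), and *CDT1*, which it inhibits, had 2.72 and 3.27 FPKM (0.20). *LIG1*, which joins lagging strand fragments, had 5.85 and 5.70 FPKM (-0.032). Of 31 mitosis genes, 20 were found and 19 of these were higher, or 15 under that rescaling, with a median of 0.23. Of 23 checkpoint kinases and regulators of the E2F, MYB and FOXM1 programmes, 17 were found and 13 of these were higher, or 7 under that rescaling, with a median of 0.052, which turned to -0.059 there. *MYBL2*, which switches on mitotic genes, had 32.5 and 33.8 FPKM, and *FOXM1*, which does so later, had 2.48 and 2.62 FPKM. Other cyclins stood on the opposite side, with 4 of the 13 at a mean of 1 FPKM or more higher, or 9 after rescaling to a common sum, and a median of -0.046, which turned to 0.028 there. Among them *CCNK*, the partner of CDK12 and CDK13, had 11.5 and 9.69 FPKM (-0.23), and *CCNC*, the partner of CDK8, had 24.6 and 29.0 FPKM (0.23).

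**Figure D5:**
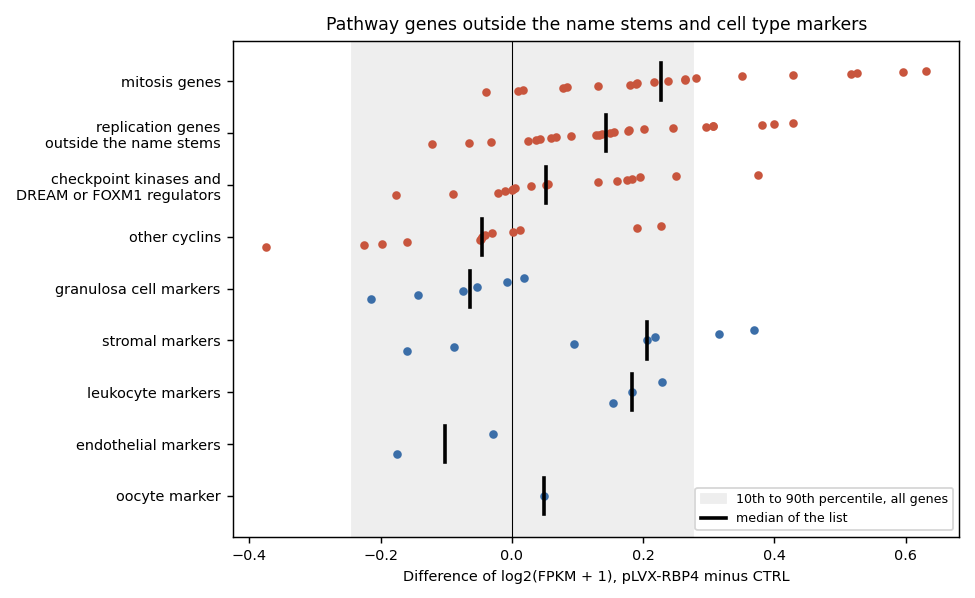
Difference between the groups (horizontal axis, log2(FPKM + 1), pLVX-RBP4 minus CTRL, as deposited) for pathway genes outside the name stems (red) and cell type markers (blue) with a mean of 1 FPKM or more; each point is a gene, the black bar the median of its list and the grey band the 10th to 90th percentile of all genes. Mitosis genes have the highest median (0.23) and other cyclins a median below 0 (-0.046, or 0.028 after rescaling to a common sum).

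Markers were read beside these values, since follicular aspirates can hold other cells that divide. Of 13 granulosa cell markers, 6 were found by symbol, among them *CYP11A1* (673 and 669 FPKM), *INHA* (28.6 and 27.5 FPKM) and *FSHR* (9.99 and 8.47 FPKM). Their summed level, mostly *CYP11A1*, was 756 FPKM in CTRL cells and 746 FPKM in pLVX-*RBP4* cells. As deposited 1 was higher and 5 were lower, where 50.2% of all genes were higher. The median difference of the 6 was -0.064, which turned to 0.011 after rescaling to a common sum. *CYP19A1*, *FOXL2* and *AMH* were not found by name. Of 9 stromal markers 7 were found, of which 5 were higher in pLVX-*RBP4* cells, or 4 after rescaling to a common sum without the highest gene. The median difference of the 7 was 0.21, or 0.089 under that rescaling, and their summed level was 1438 and 1619 FPKM. Leukocyte markers summed to 48.6 and 55.4 FPKM over 5 of 6 genes, mostly *CD14*, while *PTPRC*, present on all leukocytes, had 0.229 and 0.166 FPKM. Endothelial markers summed to 19.9 and 19.0 FPKM over 2 of 5 genes. Theca markers were near the lower end, with a sum of 0.209 and 0.385 FPKM over 2 of 3 genes, *INSL3* being listed at 0 in CTRL cells, and the 1 oocyte marker found of 6, *GDF9*, had 3.36 and 3.51 FPKM. The part of these cells in the differences of the cell cycle genes was not tested.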

How the data were processed

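RNA of 3 pLVX-*RBP4* and 3 CTRL libraries was sequenced by the authors, who aligned the clean reads to Sscrofa10.2 with TopHat2 and used Cuffdiff of Cufflinks. The versions and the annotation release were not given in the sources used here. The deposited FPKM values, computed by the authors, are 1 per gene and group, in 2 columns, both used, with 0 columns left out. Column letters were read as the groups of the sample titles. With 1 value per group no test, standard deviation or replicate check could be made. The table gives no depth, and the read totals that the study lists per library were not used here.

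Symbols came from the study's tables (765 genes) and, for 9992 more, from Ensembl names. From the values, log2(FPKM + 1) and its difference between the groups were computed, for genes with a mean of 1 FPKM or more, and counts were made at any difference and at 1.2-fold on the FPKM + 1 scale. Lists are described by their counts and medians beside those of all genes. Counting was tested on simulated data.

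Members, roles and lists were chosen with earlier results of these data known. Named in full were the cyclins, main CDKs, inhibitors, E2Fs, *RB1*, MCM genes, *RRM1* and *TOP2A*, and in each role group the most abundant member and those furthest apart. Other members could be named with both values. From the lists outside the name stems and the marker lists, genes were named after their values were seen. No sequence or annotation of the build was used, so positions, promoters and proteins were not analysed here.

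Alternatives were pseudocounts of 0.1 and 0.01, no filter, a mean of 5 FPKM or more, a common upper quartile, a common median, a common sum with and without the highest gene, and the cell cycle and replication members alone. No pseudocount, folds of 1.1 and 1.5, and leaving out *CDK1* were chosen after seeing the data. Python 3.11.15, numpy 2.4.6, pandas 2.3.3 and matplotlib 3.10.9 were used.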

Additional observations from a re-analysis of the deposited data

How the results depend on the processing

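No paired analysis was possible because the deposited table holds 1 value per gene and group, and no replicate could be left out for the same reason. The 58 higher members and the median of 0.088 were compared under each alternative. The median turned to -0.015 after rescaling to a common sum without the highest gene, where 44 members were lower, 4 were at least 1.2-fold higher and 8 at least 1.2-fold lower. After rescaling to a common sum, 18 were lower, 18 (20.7%) at least 1.2-fold higher and 1 (1.15%) at least 1.2-fold lower. The shares of all genes at 1.2-fold were 17.7% and 5.06% there, and 64.9% were higher. These rescalings move all genes together. With a mean of 5 FPKM or more, 5 members (7.69%) were at least 1.2-fold higher, against 10.8% of all genes. The median was 0.046, with 40 members higher and 25 lower, where 52.0% of all genes were higher. With a pseudocount of 0.1, 0.01 or none, 14 (16.1%) were at least 1.2-fold higher, against 13.4%, 13.7% and 13.5% of all genes. For the cell cycle and replication members alone, 10 (18.9%) were lower, against 49.8% of all genes. At least 1.2-fold lower was 1 (1.89%), against 8.63% of all genes. At a fold of 1.1 the counts were 32 higher (36.8%, against 25.0% of all genes) and 10 lower (11.5%, against 22.6%). At 1.5 they were 2 and 1, beside 1.49% and 1.28% of all genes. Without *CDK1* the median was 0.086. The pseudocount mattered for weak genes, as *POLE2* went from 0.65 to 1.199 and *CDKN2A* from -1.05 to -2.05 with none. The planned results on promoter motifs and protein identity were not run, since no sequence was used.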

Other observations

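The split between higher and lower members differed between bands of level, which also differed in their mix of roles. Among the members with a mean of 1 to 5 FPKM, 18 of 22 were higher in pLVX-*RBP4* cells, where 45.1% of all genes at that level were. Between 5 and 20 FPKM, 28 of 44 members were higher, against 47.4% of all genes. Between 20 and 100 FPKM, 9 of 17 members were higher, against 53.6% of all genes. At 100 FPKM and over, the 4 members were *CDK2AP1*, *CDC42*, *CDC42EP3* and *CDC37*, 3 of which were higher, against 67.1% of all genes. All 4 of these belong to the members with other roles. The cell cycle and replication members had a median level of 6.71 FPKM and those with other roles 19.3 FPKM. Level and role thus went together, and the bands were not split by role, so no dependence on level can be read from them.

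The 12 members with a mean FPKM under 1 went both ways. Higher in pLVX-*RBP4* cells were *CCNE2*, *CCNA1*, *E2F7*, *ORC1*, *CDK3* (0.168 and 0.190 FPKM) and *CCNB1IP1* (0.306 and 0.335 FPKM). Lower were *CDC6*, *POLD3*, *MCM9* (0.615 and 0.398 FPKM), *CDK5R1* (0.535 and 0.301 FPKM) and *CDK5R2*, which had 0.0608 FPKM in CTRL cells and was listed at 0 in pLVX-*RBP4* cells. *CDKN1A* was listed at 0 in both.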
